A study of Mus musculus with 103 samples.

Results

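The sites described here are promoters at which binding of SREBP1 and of LXR was found in the same place in mouse macrophages. The sites were chosen by the peak lists themselves: a site is an SREBP1 peak whose centre lay within 1000 bases of a transcript start and that shared at least 1 base with an LXR peak, both from macrophages given the LXR agonist GW3965. Of 5522 SREBP1 peaks at promoters, 1253 met this rule (22.7%, exact binomial 95% interval 21.6 to 23.8%, counting error only), out of 13984 SREBP1 peaks in all. The 1253 shared sites lay nearest to 1225 genes, and 28 genes had 2 sites each.

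SREBP1, encoded by Srebf1, is made as a membrane protein of the endoplasmic reticulum. When it is released and cut in the Golgi, its amino-terminal part enters the nucleus and activates genes of fatty acid and cholesterol synthesis through sterol regulatory elements. LXR, the liver X receptor, is a nuclear receptor for oxysterols that binds DNA with RXR and activates genes of cholesterol efflux, and Srebf1 itself is one of its best known target genes. In macrophages both act on lipid synthesis, and both have been studied in the course of the response to bacterial lipid A.

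The cells were thioglycollate-elicited peritoneal macrophages of male C57BL/6 mice aged 6 to 8 weeks, collected 3 to 4 days after the broth was injected and kept in 0.5% serum before treatment. The ChIP-seq groups were SREBP1 after GW3965 and LXR after GW3965 (1 µM), with 1 peak list each and no replicate. The RNA groups were cells given KLA (Kdo2-lipid A, an agonist of TLR4, 100 ng/ml) for 1, 6 or 12 h, their untreated control, cells given KLA for 24 h and a separate untreated control for 24 h, with 1 poly(A) library each. No group carried an engineered allele. Pooling of mice: not given in the sources used here. The RNA came from cells without GW3965 and the binding from cells with it, so the 2 readouts are not from the same treatment. The SREBP1 sample is labelled as 18 h of GW3965, the header of the LXR list names 5 h, and the protocol gives 24 h. The LXR sample is titled as GW3965 although its treatment label reads as a control.

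Each of the 6 RNA libraries held between 2205188 and 2674827 reads, so that 1 read in a transcript of 1 kb was worth 0.374 to 0.453 RPKM. The 9 macrophage markers summed to 6558 to 11271 RPKM and none was at 0. Most of this sum was Lyz2, at 3936 RPKM after KLA 24 h against 7040 in the untreated 24 h library. Cd68 and Itgam were also lower there, Csf1r and Mertk differed little, and Emr1, Cd14, Marco and Fcgr1 were higher. Markers of neutrophils summed to 39.6 to 118 RPKM (1 of 4 at 0 in every library), of fibroblasts to 81.0 to 170 RPKM, of B cells to 3.64 to 6.38 RPKM, of mesothelial cells to 0.88 to 3.64 RPKM, and those of T cells, mast cells and dendritic cells to at most 1.02 RPKM. The neutrophil and fibroblast sums were highest at KLA 24 h. The neutrophil sum there was S100a8 alone (118 RPKM, against 45.5 in the untreated 24 h library), with S100a9, Mpo and Elane at 0 in both, while Col1a1, Col1a2 and Dcn were all at their highest. Their part in the results at 24 h was not tested. With bulk RNA, fewer cells of a type and less RNA per cell cannot be told apart.

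The promoter sequences of 8 genes next to shared sites are shown because they carry the motifs searched for, or because their peaks were among the tallest. They are the 200 bases before the start of the gene as RefSeq gives it on GRCm38.p6, 5′ to 3′ on the strand of the gene. Capitals mark the word searched for as a sterol regulatory element (TCACNCCAC), a pair of LXR half-sites (GGTNA and GGTCA, 5 bases apart), an E-box (CACGTG) or a CCAAT box (CCAAT), each on either strand. Only these exact words were searched for. Other forms of the elements would stay in lower case, so a stretch without capitals may still hold one. The peak positions are on mm9 and were not carried over to this build.
Ucp2 (GRCm38.p6 chr7:100493158-100493357, plus strand): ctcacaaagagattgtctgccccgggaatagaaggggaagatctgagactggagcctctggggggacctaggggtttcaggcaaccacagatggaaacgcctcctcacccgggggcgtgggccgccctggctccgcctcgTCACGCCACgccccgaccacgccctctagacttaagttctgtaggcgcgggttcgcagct
Acsl3 (GRCm38.p6 chr1:78657625-78657824, plus strand): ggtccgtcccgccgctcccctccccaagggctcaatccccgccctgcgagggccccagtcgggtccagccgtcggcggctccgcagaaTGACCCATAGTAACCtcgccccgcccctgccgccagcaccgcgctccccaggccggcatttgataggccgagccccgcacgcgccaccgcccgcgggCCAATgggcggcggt
Cyp51 (GRCm38.p6 chr5:4104698-4104897, minus strand): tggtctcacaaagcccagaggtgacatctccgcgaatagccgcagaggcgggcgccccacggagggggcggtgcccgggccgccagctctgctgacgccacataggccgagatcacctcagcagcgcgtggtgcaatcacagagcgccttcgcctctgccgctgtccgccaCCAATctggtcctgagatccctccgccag
Mmab (GRCm38.p6 chr5:114444028-114444227, minus strand): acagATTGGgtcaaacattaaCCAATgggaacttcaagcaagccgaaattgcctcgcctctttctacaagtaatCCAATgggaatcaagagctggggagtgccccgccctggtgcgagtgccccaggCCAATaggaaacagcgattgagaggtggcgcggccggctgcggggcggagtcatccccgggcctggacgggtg
Tmem97 (GRCm38.p6 chr11:78550736-78550935, minus strand): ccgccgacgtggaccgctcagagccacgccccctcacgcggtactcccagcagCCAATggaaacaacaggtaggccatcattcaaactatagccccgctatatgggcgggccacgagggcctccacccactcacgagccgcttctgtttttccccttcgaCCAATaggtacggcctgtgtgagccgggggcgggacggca
Hsd17b7 (GRCm38.p6 chr1:169969206-169969405, minus strand): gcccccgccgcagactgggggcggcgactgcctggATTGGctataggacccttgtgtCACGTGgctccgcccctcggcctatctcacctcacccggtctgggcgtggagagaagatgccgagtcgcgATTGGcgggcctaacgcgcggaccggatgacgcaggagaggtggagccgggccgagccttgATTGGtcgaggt
Ctsd (GRCm38.p6 chr7:142387828-142388027, minus strand): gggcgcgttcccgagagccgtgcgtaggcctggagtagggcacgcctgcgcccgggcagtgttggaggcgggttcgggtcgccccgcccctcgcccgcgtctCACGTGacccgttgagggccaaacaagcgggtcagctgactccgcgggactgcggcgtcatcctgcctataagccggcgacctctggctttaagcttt
Pgk1 (GRCm38.p6 chrX:106186900-106187099, plus strand): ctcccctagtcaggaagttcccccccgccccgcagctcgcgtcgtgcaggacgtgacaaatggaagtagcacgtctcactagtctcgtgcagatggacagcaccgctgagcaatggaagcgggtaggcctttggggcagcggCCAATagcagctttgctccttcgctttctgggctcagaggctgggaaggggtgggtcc

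In Ucp2, the gene of a mitochondrial uncoupling protein, the sterol regulatory element began 60 bases before the start, and the SREBP1 peak was centred 47 bases before the start in mm9. In Acsl3, a long-chain acyl-CoA synthetase that feeds lipid droplets, the pair of LXR half-sites began 112 bases before the start and lay on the opposite strand. The Acsl3 peaks had 48.4 SREBP1 and 160 LXR tags per 10000000, and this site also lay within 1 kb of Utp14b. Mmab, which shares its start region with the mevalonate kinase gene Mvk, held 5 CCAAT boxes in its 300-base window, 4 of them in the stretch shown. CCAAT is the letter core bound by NF-Y, a factor known to work beside SREBP at sterol genes. The Ctsd stretch held an E-box at 98 bases before the start, and the longer CLEAR-type word (TCACGTGA, the element of TFEB at lysosomal genes) overlapped it. Hsd17b7, a reductase of cholesterol synthesis, held an E-box at 143 bases before the start and 3 CCAAT boxes. Ucp2 and Acsl3 were chosen for display after their matches and values were seen.

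Motifs were counted in RefSeq promoter windows, from 250 bases before to 50 after the start, for the 983 of 1225 genes (80.2%) that matched by gene ID, which gave 1248 windows. The exact word TCACNCCAC for a sterol regulatory element was present in 27 windows (2.16%), against 1.13% of windows at promoter SREBP1 peaks without LXR, 1.07% at promoter LXR peaks without SREBP1 and 1.24% of all 32851 windows. These windows belonged to 25 genes, whose peaks had a median of 13.1 SREBP1 tags, and in 15 genes the peak centre lay within 150 bases of the match as each is placed from its own start. The tallest of them after Ucp2 were D030047H15Rik (45.9 tags), Sh3gl1 (35.3 tags) and Hist2h2ac (26.2 tags). Paired LXR half-sites were present in 4 windows (0.321%), those of Acsl3, Tmco4, Hirip3 and AU019990, against 1 window (0.0247%) at SREBP1 peaks without LXR, 11 windows (0.211%) at LXR peaks without SREBP1 and 0.207% of all windows. In these 4 genes, in order, the match began at −112, −101, 16 and −104 bases from the start. The SREBP1 peak centres lay at −25, −648, 86 and 170 bases, so those of Tmco4 and AU019990 were far from the match. The single half-site AGGTCA was present in 15.7% of the windows, against 11.9% at SREBP1 peaks without LXR, 14.0% at LXR peaks without SREBP1 and 16.3% of all windows.

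The GC box (GGGCGG, the core of Sp1 sites) was present in 63.7% of windows next to shared sites, against 64.3% at SREBP1 peaks without LXR, 59.9% at LXR peaks without SREBP1 and 35.7% of all windows. The E-box was present in 10.3%, 11.1% and 10.9% of the 3 bound sets and in 7.15% of all windows, and the CLEAR-type word, which holds an E-box, in 2.32%, 2.10% and 1.99% against 0.974%. CCAAT boxes were present in 38.1% of the windows, against 38.3% at SREBP1 peaks without LXR, 39.9% at LXR peaks without SREBP1 and 37.4% of all windows, and the next motifs are given in this order. NRF1-type words (GCGCATGC) were present in 4.73%, against 5.75%, 5.41% and 2.71%. ISRE-type words (GAAANNGAA) were present in 6.41%, against 6.83%, 7.59% and 8.56%, and PU.1-type words (GAGGAAGT) in 3.29%, against 2.94%, 3.95% and 3.20%. NF-κB-type words (GGANTTTCC) were present in 10 windows next to shared sites (0.801%), against 1.36%, 1.46% and 1.25%. A match describes letters in these windows and is not a measured site, since the windows were taken by gene and not by peak.

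Sharing with LXR was more common among the taller SREBP1 peaks. In 4 groups of equal size, by tag count, of promoter SREBP1 peaks, the share that overlapped an LXR peak was 12.5% (6.15 to 8.61 tags), 16.5%, 22.6% and 39.1% (13.5 to 1226 tags). Away from promoters, 2555 of 8462 SREBP1 peaks overlapped an LXR peak (30.2%). Seen from the LXR side, 1255 of 6956 promoter peaks overlapped an SREBP1 peak (18.0%). Promoters held 39.5% of all SREBP1 peaks and 17.1% of all LXR peaks. With 1 list per factor, none of these shares could be tested across replicates.

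The tag counts are those of the authors' peak caller, scaled to 10000000 tags per library, so that 1 tag was worth 0.41 for SREBP1 and 1.33 for LXR. SREBP1 tags at shared sites had a median of 12.7 (6.15 to 1226, quartiles 10.2 and 16.4), against 10.2 at the 4269 promoter SREBP1 peaks without LXR. The median fold over the input ran the other way, 10.4 at shared sites and 12.1 at SREBP1 peaks without LXR. The input was at its minimum of 0.5 tags at 24.7% of shared sites and at 39.9% of SREBP1 peaks without LXR, and its part in the difference was not tested. Against the surrounding 10000 bases the median fold was 7.50 at shared sites and 6.55 at SREBP1 peaks without LXR. LXR tags at shared sites had a median of 25.3 (10.7 to 706.5), against 24.0 at the 5701 promoter LXR peaks without SREBP1. All of these values come from the lists that chose the sites and are a description.

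Most shared sites were low in SREBP1. In all, 1097 of 1253 (87.5%) had under 20 SREBP1 tags and 22 had 50 or more. The tallest, at Pgk1, the gene of the glycolytic enzyme phosphoglycerate kinase (mm9 chrX:103382148-103382342, 194 bases before the start), had 1226 SREBP1 tags and 61.3 LXR tags. A count of this size in a peak of 194 bases holds many tags at repeated positions. The peak caller considered at most 1 tag per base, and the part of repeated tags in this height was not tested. Other tall sites were at Pank3, a pantothenate kinase of coenzyme A synthesis (112 SREBP1 and 74.7 LXR tags), Idh1, the cytosolic isocitrate dehydrogenase that makes NADPH (102 and 20.0 tags), and Slc15a3, a lysosomal peptide transporter (94.7 and 345 tags). Idh1 had a further site 927 bases after its start with 21.3 SREBP1 and 227 LXR tags.

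A further 10 of the tallest sites were at Insig1, Mmab, Phb, Cyp51, Tkt, 3110045C21Rik, Tmem97, Scd2, Stard4 and H2-K2, with 61.9 to 84.4 SREBP1 tags and 17.3 to 64.0 LXR tags. Of these, Insig1 encodes the protein that holds SREBP in the endoplasmic reticulum, Cyp51 the lanosterol demethylase, Tkt the transketolase of the pentose phosphate pathway, Scd2 a stearoyl-CoA desaturase, Stard4 a sterol carrier and Phb the mitochondrial protein prohibitin. Tmem97 encodes a membrane protein that binds the cholesterol transporter NPC1. The site at 3110045C21Rik lay 59 bases before the start of that transcript and also within 1 kb of Hsd17b7. H2-K2 has a near-identical paralog in H2-K1, so its reads and tags are uncertain.

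**Figure D1:**
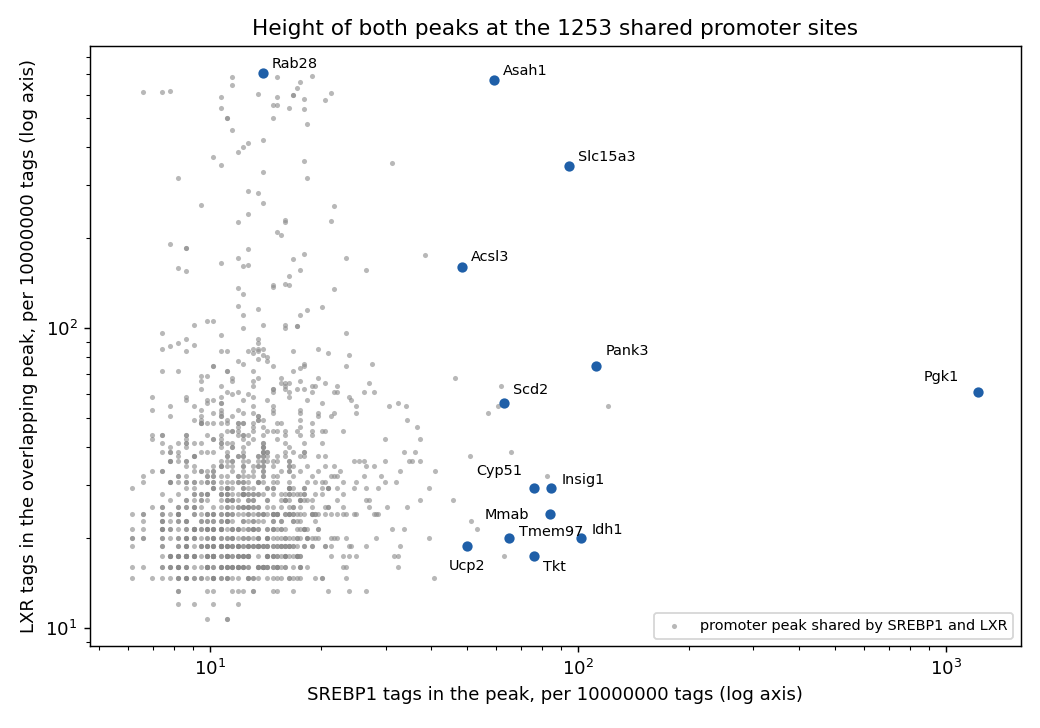
SREBP1 tags (x axis) and LXR tags (y axis) of each of the 1253 shared promoter sites, both per 10000000 tags on log axes, with 14 sites named. Most points lie under 20 SREBP1 tags, Pgk1 stands alone at 1226, and the sites tallest for LXR, such as Rab28, are mostly low in SREBP1.

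The sites tallest for LXR were other genes. Rab28, the gene of a small GTPase, had the highest LXR count (706.5) and 13.9 SREBP1 tags. Aldh4a1, an enzyme of proline breakdown (693 LXR tags), Rhbdd3 (688), the ribosomal protein gene Rpl22 (687), Asah1 (671), 2410006H16Rik (660), Asna1, which targets tail-anchored proteins to membranes (647), the ciliary gene Nphp4 (629), the autophagy gene Atg101 (615) and the cohesin gene Smc3 (612) followed. Except at Asah1, the gene of acid ceramidase, with 59.0 SREBP1 tags, these 10 sites had 6.56 to 18.9 SREBP1 tags. The site at Rhbdd3 also lay within 1 kb of Ewsr1, and that at 2410006H16Rik within 1 kb of Snord49a and Snord49b. The site at Nphp4 (0 to 0.166 RPKM) also lay within 1 kb of Kcnab2 (6.93 to 28.9 RPKM). In all, 26 shared sites had 500 or more LXR tags. The sites within the top 100 of both counts were 8, at Slc15a3, Asah1, Acsl3, St6galnac6, Tmco4, Gm2848, Olfr229 and Trem2. Unrelated rankings of the 1253 sites would put about as many in both. Over the 1253 sites the Spearman correlation of SREBP1 and LXR tags was 0.16, both counts being taken at the same places and under the same peak calling thresholds.

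The overlap itself was often partial. The 2 peaks shared a median of 106 bases (1 to 184) of the 194 bases of an SREBP1 peak, 100 sites shared under 20 bases, and 682 shared at least 0.5 of the SREBP1 peak. The peak centres were a median of 83 bases apart, and at 416 sites (33.2%) they were within 50 bases. At Trex1 the peaks shared 1 base, at Atp5a1 3 bases and at Psap 7 bases, while at Tmem97 they shared 177, at Mmab 178 and at Atp6v0d1 180 bases. At the distance limit, the outermost sites inside were at 2210011C24Rik (1000 bases before the start), Arrb2 (994 after) and B430010I23Rik (989 before), with 10.7, 10.2 and 9.43 SREBP1 tags. The nearest ones outside were at Abcb4 (1004 bases), Gpr35 (1004) and Man2a2 (1011), with 8.61, 11.9 and 11.1 tags.

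Shared sites sat closer to the start, and more often before it, than SREBP1 peaks without LXR. Their centres were upstream of the start in 786 of 1253 cases (62.7%), against 39.4% of SREBP1 peaks without LXR and 62.1% of LXR peaks without SREBP1. The median distance to the start was 207 bases at shared sites, against 401 bases at SREBP1 peaks without LXR and 198 bases at LXR peaks without SREBP1. Within 100 bases of the start lay 350 shared sites (27.9%), against 11.1% and 29.9% in the other sets. Since the rule asked for an LXR peak at the same place, the position of shared sites follows in part from where LXR peaks lie, and no test was made. At 203 sites (16.2%) the starts of 2 or more genes lay within 1 kb, so that the nearest gene is only 1 of the candidates.

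**Figure D2:**
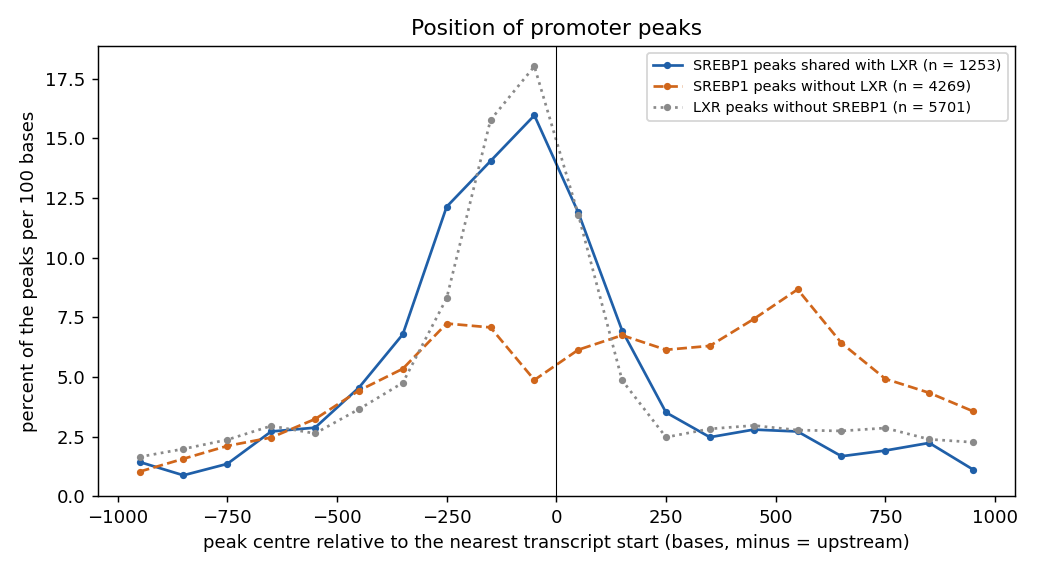
Percent of the peaks of each set in bins of 100 bases (y axis) by the distance of the peak centre from the nearest transcript start (x axis, minus is upstream), for 1253 shared sites, 4269 SREBP1 peaks without LXR and 5701 LXR peaks without SREBP1. Shared sites and LXR peaks without SREBP1 are most frequent in the 100 bases before the start, while SREBP1 peaks without LXR are spread on both sides and are most frequent around 550 bases after it.

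Genes next to shared sites were mostly expressed. In the untreated control for 1 to 12 h, 1079 of 1225 (88.1%) had an RPKM of at least 1, against 81.3% of genes at SREBP1 peaks without LXR, 82.7% at LXR peaks without SREBP1 and 41.9% of all 24016 genes. In the untreated 24 h library the count was 1084 (88.5%), against 42.4% of all genes. Their median in the first of these libraries was 8.77 RPKM, against 6.64, 7.82 and 0.188 RPKM in the same sets. The lowest count was at KLA 6 h, with 1000 of 1225 at 1 RPKM or more (81.6%). In every library 34 of the genes were at 0. The Spearman correlation over the 1253 sites was 0.13 between SREBP1 tags and mean RPKM and of 0.06 between LXR tags and mean RPKM.

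The 8 most abundant RNAs next to shared sites belonged to Ctsd, Mir6236, Psap, Ccl3, Cstb, Cd68, Ctsz and H2-K1. Mir6236 is a short microRNA entry (mm9 chr9:110183791-110183913) with 4851 to 14191 RPKM in these poly(A) libraries, and the source of its reads was not tested. Ctsd and Ctsz encode cathepsins, Psap the precursor of the saposins, Cstb a cathepsin inhibitor, Cd68 a macrophage endosomal glycoprotein, Ccl3 a chemokine and H2-K1 a class I histocompatibility antigen. Ctsd stood at 11594 RPKM without KLA and at 8979, 5206 and 4822 RPKM after 1, 6 and 12 h, and at 3475 RPKM after 24 h against 8180 in the untreated 24 h library. H2-K1 stood at 566 RPKM without KLA and at 669, 1018 and 1670 RPKM after 1, 6 and 12 h, and at 2175 after 24 h against 433 RPKM.

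After KLA, genes next to shared sites differed from the untreated library about as often as all genes did. Of the 1225 genes, 1097 had an RPKM of at least 1 in 2 libraries and could be called, and 128 could not. At 6 h, 79 of 1097 were at least 2-fold higher (7.20%, against 9.35% of all 10606 genes tested) and 265 were at least 2-fold lower (24.2%, against 22.4%), on the log2(RPKM + 1) scale. At 1 h, 32 were higher (2.92%, against 3.65%) and 38 lower (3.46%, against 4.09%). At 12 h, 73 were higher (6.65%, against 8.88%) and 174 lower (15.9%, against 16.3%). At 24 h, 86 were higher (7.84%, against 9.98%) and 125 lower (11.4%, against 10.6%). The shares of lower genes were near those of all genes at each time, while the shares of higher genes were below them. Genes at SREBP1 peaks without LXR were higher in 2.91, 7.77, 6.87 and 8.01% of cases after 1, 6, 12 and 24 h. At LXR peaks without SREBP1 these shares were 4.17, 9.24, 9.07 and 9.75%. With 1 library per condition none was tested.

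The median log2 ratio next to shared sites after 1, 6, 12 and 24 h was −0.17, −0.50, −0.36 and −0.17, where all genes tested had −0.16, −0.46, −0.32 and −0.09. With the libraries rescaled so that the median of all genes was 0, an alternative scaling, 34 were at least 2-fold higher and 24 lower after 1 h, 146 and 125 after 6 h, 113 and 103 after 12 h, and 97 and 106 after 24 h. As shares, 3.10, 13.3, 10.3 and 8.84% were higher, against 4.29, 14.5, 12.4 and 11.1% of all genes tested. Lower were 2.19, 11.4, 9.39 and 9.66%, against 2.87, 11.1, 9.51 and 9.30%. Lower calls outnumbered higher ones at every time as deposited, and on the rescaled values only at 24 h. Over all genes tested they also did so at every time as deposited, but at no time on the rescaled values. At 1 h the order of the deposited counts turned with a pseudocount of 3 RPKM, with 29 higher and 9 lower. These were 2.64% and 0.820%, against 2.89% and 1.20% of all genes tested. It turned too with at least 5 RPKM asked for in 2 libraries, with 28 higher and 12 lower. Those were 3.34% and 1.43%, against 4.26% and 2.80% of all genes that passed this limit. In all, 632 of 1097 genes (57.6%) passed 2-fold at no time, against 55.6% of all genes tested. At 6, 12 and 24 h alike, 80 were lower (7.29%, against 6.24%) and 44 higher (4.01%, against 5.61%), and 10 were higher at all 4 times (0.912%, against 1.59%).

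**Figure D3:**
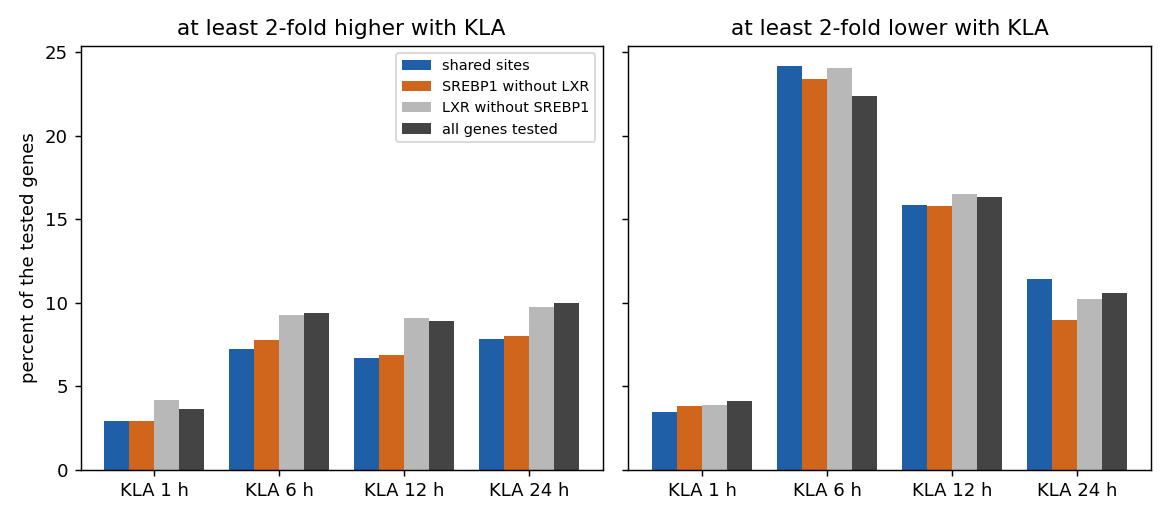
Percent of tested genes at least 2-fold higher (left) or lower (right) at each KLA time than in the untreated library, for genes next to shared sites, next to SREBP1 peaks without LXR, next to LXR peaks without SREBP1, and all genes tested. On the left, the bars of shared sites and of SREBP1 peaks without LXR stand below the others at each time. On the right the 4 bars stand close together, with 24.2% of genes next to shared sites and 22.4% of all genes lower at 6 h.

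Genes of cholesterol synthesis and uptake were next to shared sites in 4 of 22 listed cases, against 5.1% of all genes and 10.3% of genes tested. These were Cyp51, Stard4, Pmvk (phosphomevalonate kinase) and Tm7sf2 (a sterol reductase), and Mvk and Hsd17b7 lay within 1 kb of 2 further sites. An SREBP1 peak within 1 kb of the start was present at 17 of the 22 genes and an LXR peak at 11. Of all genes tested, 42.7% and 53.8% had one, and of all genes 22.5% and 28.1%. Both were present at 10 genes, and at 4 of these, Mvd, Sqle, Sc5d and Dhcr7, no peak that met the rule was there. Of the 4 genes next to shared sites none passed 2-fold at 1, 6 or 12 h, and 2 were lower at 24 h, when 10.6% of all genes tested were. In the whole list of 19 genes tested none was higher at any time, while 1 was lower after 6 h, 1 after 12 h and 6 after 24 h. The count of 6 was taken against the untreated 24 h library alone. Against the other untreated library, Cyp51 and Stard4 did not reach 2-fold at 24 h.

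Cyp51 stood at 36.8 RPKM without KLA and at 37.1, 33.5 and 41.5 RPKM after 1, 6 and 12 h, and at 24.3 RPKM after 24 h against 50.0. It was 2.06-fold lower at 24 h (95% counting interval 1.78 to 2.38), and 1.51-fold lower against the other untreated library. Stard4 stood at 8.51 RPKM without KLA and at 10.5, 4.80 and 5.75 RPKM after 1, 6 and 12 h, and at 5.51 RPKM after 24 h against 15.4, 2.80-fold lower (1.96 to 4.05), or 1.54-fold lower against the other untreated library. At 24 h, Cyp51 and Stard4 were below both untreated libraries. Pmvk was at 8.78 to 19.6 RPKM and Tm7sf2 at 2.49 to 6.28 RPKM in the 6 libraries.

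Among the regulators of SREBP, Insig1 and Insig2, both of which retain SREBP in the endoplasmic reticulum, were next to shared sites (2 of 9 listed genes). The share was 22.2%, against 5.1% of all genes and 10.3% of genes tested. An SREBP1 promoter peak was present at 6 of the 9 genes and an LXR promoter peak at 6, against 42.7% and 53.8% of all genes tested. Insig1, whose site lay 634 bases after the start, stood at 38.4 RPKM without KLA and at 96.2, 45.5 and 43.2 RPKM after 1, 6 and 12 h, and at 32.6 RPKM after 24 h against 45.8. It was 2.51-fold higher at 1 h (2.15 to 2.93) and within 2-fold later. Insig2 was at 8.91 to 18.1 RPKM and passed 2-fold at no time. Mmab and Mvk, which share a start region, were at 1.41 and 6.35 RPKM at 6 h, against 2.89 and 12.3 RPKM without KLA. Neither passed 2-fold on the log2(RPKM + 1) scale. Tmem97 stood at 10.9 RPKM without KLA and at 7.19, 3.48 and 12.6 RPKM after 1, 6 and 12 h, and at 8.42 RPKM after 24 h against 13.3, with the lowest value 3.13-fold below its control (1.54 to 6.88).

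Genes of fatty acid synthesis and desaturation were next to shared sites in 5 of 22 cases: Scd2, Acly (ATP citrate lyase, which makes cytosolic acetyl-CoA), Tecr (a reductase of fatty acid elongation), Mid1ip1 (an activator of acetyl-CoA carboxylase) and Gpam (glycerol-3-phosphate acyltransferase). The share was 22.7%, against 5.1% of all genes and 10.3% of genes tested. An SREBP1 promoter peak was present at 14 of the 22 genes, an LXR promoter peak at 16 and both at 14. Of all genes tested, 42.7%, 53.8% and 27.0% had them, and of all genes 22.5%, 28.1% and 13.6%. At 6 h, 2 of the 5 were lower and none higher, and in the whole list of 18 genes tested 5 were lower and none higher. This was near the share over all genes tested, of which 22.4% were lower at 6 h. Scd2 stood at 24.8 RPKM without KLA and at 16.4, 7.35 and 16.0 RPKM after 1, 6 and 12 h, and at 41.3 RPKM after 24 h against 48.5. It was 3.38-fold lower at 6 h (2.67 to 4.30), or 6.60-fold lower against the other untreated library. Mid1ip1 stood at 39.9 RPKM without KLA and at 44.8, 16.6 and 15.3 RPKM after 1, 6 and 12 h, and at 25.5 RPKM after 24 h against 47.2, and was 2.40-fold lower at 6 h (1.84 to 3.16). Acly was at 31.4 to 53.8 RPKM and Tecr at 27.3 to 49.9 RPKM, and neither passed 2-fold. The site at Mid1ip1 had 16.0 SREBP1 and 229 LXR tags, and that at Acly 40.6 SREBP1 and 14.7 LXR tags.

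Idh1 and other metabolic genes next to shared sites differed in size of change. Idh1 stood at 156 RPKM without KLA and at 129, 13.6 and 28.9 RPKM after 1, 6 and 12 h, and at 31.9 RPKM after 24 h against 188. It was 11.5-fold lower after 6 h (9.04 to 14.8), and still 5.41-fold (4.56 to 6.45) and 5.88-fold lower (5.04 to 6.89) after 12 and 24 h. Its upstream site is also within 1 kb of Pikfyve, which stayed at 2.40 to 5.46 RPKM. Tkt stood at 124 RPKM without KLA and at 106, 67.8 and 91.9 RPKM after 1, 6 and 12 h, and at 75.8 RPKM after 24 h against 99.0, and did not pass 2-fold. Acsl3 stood at 5.48 RPKM without KLA and at 4.92, 1.33 and 2.90 RPKM after 1, 6 and 12 h, and at 4.81 RPKM after 24 h against 7.91, and was 4.12-fold lower at 6 h (2.15 to 8.55). Ucp2 stood at 136 RPKM without KLA and at 111, 60.3 and 45.8 RPKM after 1, 6 and 12 h, and at 33.5 RPKM after 24 h against 101, or 3.01-fold lower (2.67 to 3.40).

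The remaining sites tallest for SREBP1 showed no common direction. Pgk1, with by far the most SREBP1 tags, stood at 7.71 RPKM without KLA and at 4.80, 5.08 and 9.41 RPKM after 1, 6 and 12 h, and at 16.4 RPKM after 24 h against 7.63, 2.15-fold higher (1.43 to 3.28). Pgk1 has processed copies in the genome that could share its reads. Slc15a3 stood at 252 RPKM without KLA and at 285, 640 and 817 RPKM after 1, 6 and 12 h, and at 470 RPKM after 24 h against 224, and was 3.24-fold higher at 12 h (3.04 to 3.44). Pank3 stood at 10.5 RPKM without KLA and at 10.8, 10.6 and 5.99 RPKM after 1, 6 and 12 h, and at 9.85 RPKM after 24 h against 21.6, and its 2.19-fold lower value at 24 h was 1.07-fold lower against the other untreated library. Phb was 2.73-fold lower at 6 h (1.46 to 5.33), or 1.41-fold against the other untreated library.

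**Figure D4:**
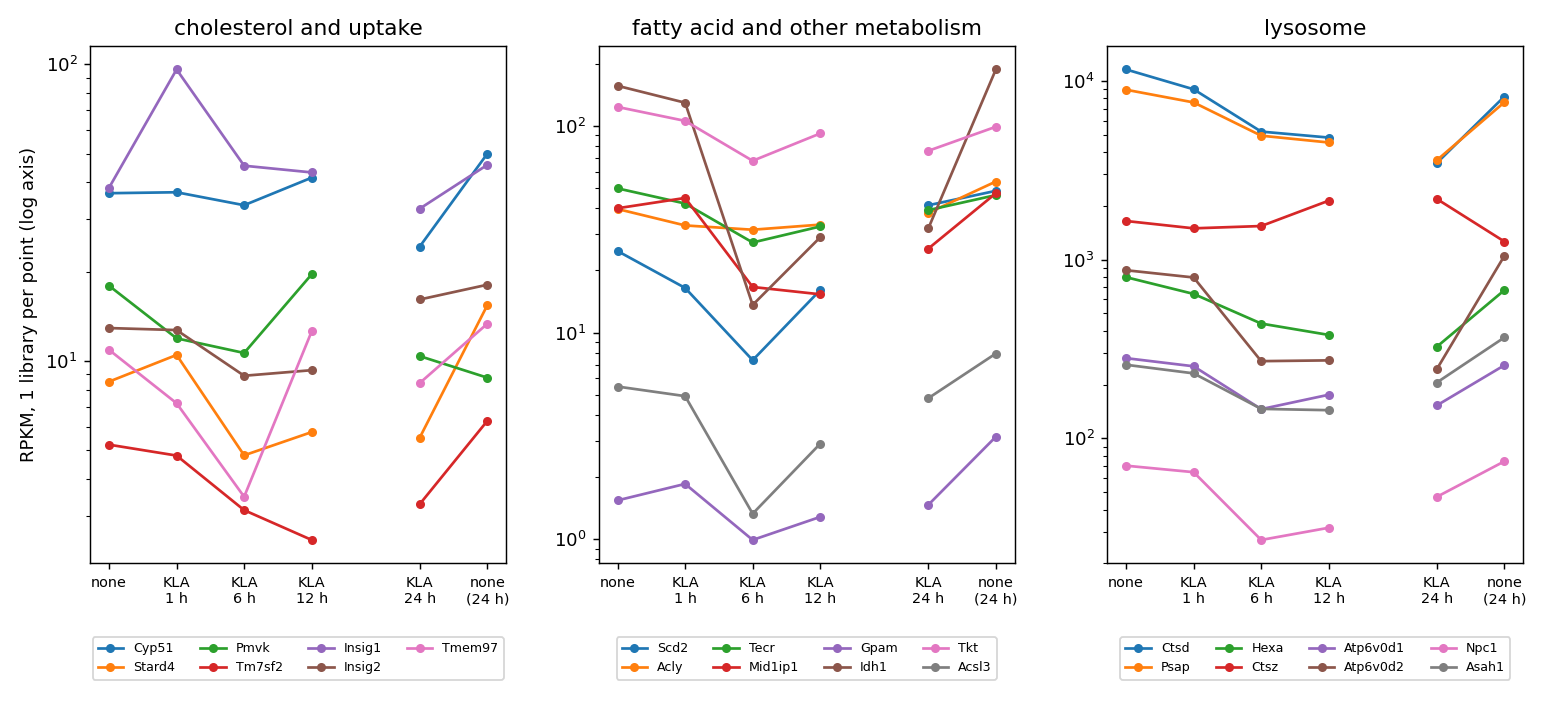
RPKM (log axis) of genes next to shared sites in the 6 libraries, 1 library per point, in panels for cholesterol, fatty acid and other metabolic, and lysosomal genes. Lines join the untreated control with 1, 6 and 12 h of KLA, and KLA 24 h with its own untreated library; Idh1 has the deepest dip, to 13.6 RPKM at 6 h.

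LXR receptors and targets were next to shared sites in 5 of 19 cases: Pltp (phospholipid transfer protein), Arl4c, Smpdl3a (a phosphodiesterase), Scd2 and Mertk (a receptor for apoptotic cells). The share was 26.3%, against 5.1% of all genes and 10.3% of genes tested. An SREBP1 promoter peak was present at 10 of the 19 genes and an LXR promoter peak at 11. Of all genes tested, 42.7% and 53.8% had one, and of all genes 22.5% and 28.1%. Of the 19 listed genes, 16 were tested. Arl4c stood at 6.40 RPKM without KLA and at 5.78, 2.23 and 4.95 RPKM after 1, 6 and 12 h, and at 13.5 RPKM after 24 h against 7.90. It was 2.87-fold lower at 6 h (1.71 to 4.99). Pltp stood at 230 RPKM without KLA and at 183, 154 and 112 RPKM after 1, 6 and 12 h, and at 55.5 RPKM after 24 h against 108. Its call at 12 h, 2.05-fold lower (1.84 to 2.29), was lost against the other untreated library, where it was 1.04 times the control. Mertk and Smpdl3a passed 2-fold at no time.

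Lysosomal and autophagy genes were next to shared sites in 7 of 28 cases: the cathepsins Ctsd and Ctsz, the hexosaminidase subunit Hexa, the proton pump subunits Atp6v0d1 and Atp6v0d2, the cholesterol exporter Npc1 and Psap. The share was 25%, against 5.1% of all genes and 10.3% of genes tested. An SREBP1 promoter peak was present at 16 of the 28 genes, an LXR promoter peak at 22 and both at 13. Of all genes tested, 42.7%, 53.8% and 27.0% had them. After 12 h the 2-fold limit was passed downward by 4 of the 7 and by 7 of the whole list of 28 (against 16.3% of all genes tested), and upward by none. Atp6v0d2 stood at 873 RPKM without KLA and at 795, 271 and 273 RPKM after 1, 6 and 12 h, and at 244 RPKM after 24 h against 1051, 4.31-fold lower (4.08 to 4.55). Npc1 stood at 70.4 RPKM without KLA and at 64.7, 27.0 and 31.6 RPKM after 1, 6 and 12 h, and at 47.1 RPKM after 24 h against 74.4, and was 2.60-fold lower at 6 h (2.29 to 2.97). Ctsd was 2.23-fold lower at 6 h (2.19 to 2.26) and 1.57-fold lower against the other untreated library. At 12 h, Ctsd and Hexa, which are among the 4, were 1.70-fold and 1.78-fold lower against that other library and did not reach 2-fold. Ctsz went against the others, with 2186 RPKM after 24 h against 1263, 1.73-fold higher (1.67 to 1.80). Asah1, which is not on the list, stood at 258 RPKM without KLA and at 231, 146 and 144 RPKM after 1, 6 and 12 h, and at 205 RPKM after 24 h against 367.

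Of 28 cytokine and NF-κB target genes 1, Ccl3, was next to a shared site (3.57%, against 5.1% of all genes and 10.3% of genes tested), although 22 had an LXR promoter peak and 7 an SREBP1 promoter peak. Of 30 interferon response genes none was next to one, with 14 and 7 in the same order. This holds for the listed genes only, since interferon-induced genes outside the list, such as Gbp7 and Gbp9, were next to shared sites. Cell cycle genes were next to a shared site in 1 of 17 cases (Cdkn1a, the inhibitor p21) and mitochondrial respiration genes in 2 of 20 (Cox5a and Atp5a1). These shares were 5.88% and 10%, against the same 5.1% and 10.3%. Ccl3 stood at 73.0 RPKM without KLA and at 2237, 4203 and 2012 RPKM after 1, 6 and 12 h, and at 1156 RPKM after 24 h against 73.0, and was 57.6-fold higher at 6 h (48.3 to 69.2). Cdkn1a was 4.78-fold higher at 1 h (4.12 to 5.58) and 6.35-fold higher at 6 h (5.49 to 7.38).

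**Figure D5:**
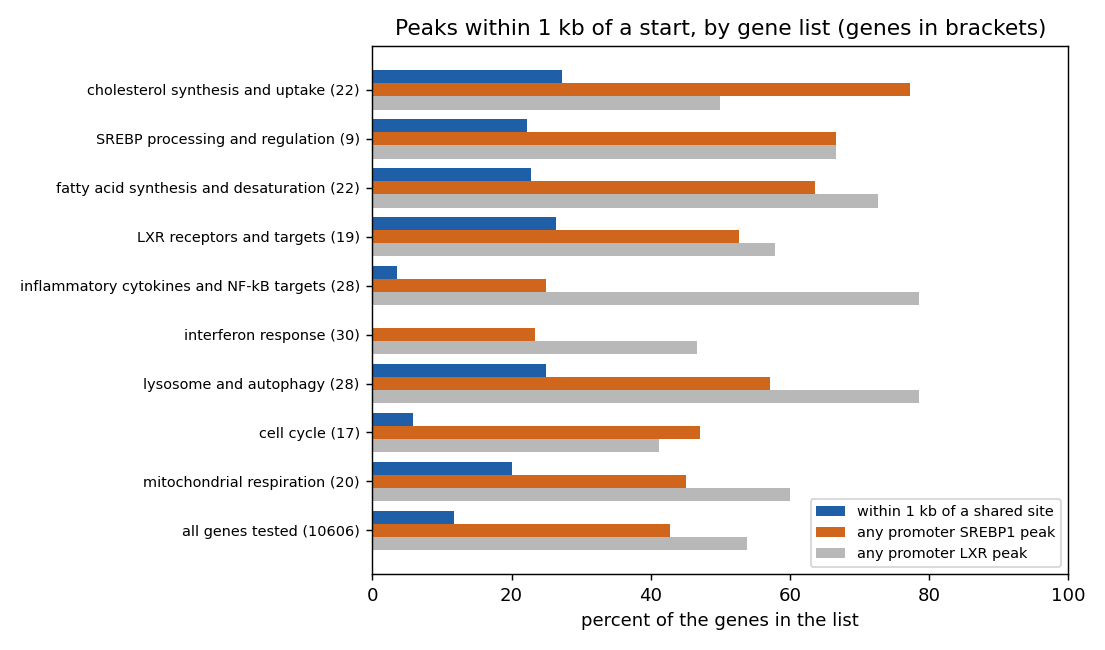
Percent of the genes of each list (number in brackets) with a start within 1 kb of a shared site, of any promoter SREBP1 peak and of any promoter LXR peak, with all genes tested at the bottom. Among all genes tested, 11.8% lay within 1 kb of a shared site, 42.7% of an SREBP1 peak and 53.8% of an LXR peak, and the interferon list has no bar for shared sites. The lists also count genes that were not tested. Over all genes, tested or not, these shares were 5.89%, 22.5% and 28.1%.

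Besides Ccl3 and Idh1, the largest differences after KLA among genes next to shared sites were of genes outside these lists, chosen here by the size of their ratios. Fam26f was 245-fold higher at 6 h (83.6 to 1192), with 309 RPKM against 1.26 (3 reads), and 72.0-fold higher against the other untreated library. Gbp7 and Gbp9, interferon-induced GTPases with close paralogs, were 76.3-fold (48.7 to 127) and 59.9-fold (23.1 to 222) higher at 6 h, or 35.4-fold and 21.6-fold against the other untreated library. Trex1, a DNA exonuclease, was 39.5-fold higher (26.6 to 61.3), Mlkl, the effector of necroptosis, 18.8-fold (12.4 to 29.9) and Tap1, the peptide transporter of antigen presentation, 18.1-fold (14.4 to 23.0). The site at Tap1 also lay within 1 kb of the immunoproteasome gene Psmb9, with 186 RPKM at 6 h against 34.9. At 1 h the highest after Ccl3 were the circadian gene Ccrn4l (25.8-fold, 16.7 to 42.0), Trex1 (12.5-fold, 8.32 to 19.6) and the transcription factor genes Maff (22.6-fold, 13.8 to 40.0) and Myc (9.04-fold, 6.40 to 13.1). Myc was back at 6.69 RPKM at 6 h against 6.82 without KLA.

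The sites at these genes spanned the usual range of SREBP1 tags (median of all shared sites 12.7), with 6.97 at Mlkl, 7.79 at Gbp7, 8.61 at Gbp9 and Maff, 12.3 at Trex1, 13.1 at Myc, 18.0 at Tap1 and Ccrn4l, and 18.4 at Fam26f. In the other direction, Cdca7l was 38.2-fold lower at 6 h (10.2 to 322), Fbxo32, a muscle ubiquitin ligase, 22.1-fold (15.0 to 33.8), Tpra1 14.8-fold (9.61 to 24.0), the immune receptor gene Cd300lb 13.3-fold (10.6 to 16.8) and Arl11 11.4-fold (8.49 to 15.7). Matk, a kinase that acts on Src family kinases, was 46.8-fold lower at 12 h (19.8 to 146), or 26.3-fold against the other untreated library. Cyp27a1, which makes the LXR ligand 27-hydroxycholesterol, was at 0.396 RPKM after 24 h against 11.0 and was 27.9-fold lower (7.36 to 236). Cmtr2, Exo5, Fam118a and Rgs18 also had 1 of the 5 lowest ratios at a time. Daglb, a diacylglycerol lipase, was 6.38-fold lower at 6 h (5.37 to 7.62), and its site had 13.9 SREBP1 and 38.7 LXR tags.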

How the data were processed

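Poly(A) RNA-seq of 6 libraries and peak lists of SREBP1 and LXR were analysed, 8 of 103 labelled samples. The submitters' processing notes name mm9 as the build and HOMER, STAR and Bowtie 0.12.7 as tools. The RNA values are RPKM deposited by the authors for 33022 transcripts of 24016 genes. Strand-aware assignment of reads: not given in the sources used here. Peaks were called with HOMER per the file headers, at a false discovery rate of 0.001 and 4-fold over the input and the surrounding 10000 bases, from 24395376 (SREBP1) and 7501248 (LXR) tags, of which 1.75% and 17.9% lay in peaks. A peak's tag count is a signal that the authors normalised to 10000000 tags, the fold over input is a ratio from the authors' peak caller, and the deposited peak score was used only to rank peaks. By their names in the headers, the SREBP1 tags are a combined set with an untreated input, and the LXR input is from KLA at 24 h.

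With pandas 2.3.3, numpy 2.4.6 and scipy 1.17.1, peaks were assigned to the nearest transcript start of the RPKM table and overlapped between lists. The transcript with the highest mean RPKM stood for its gene; 10606 genes reached 1 RPKM in at least 2 libraries and were tested, with calls at 2-fold on log2(RPKM + 1), a scale that understates changes of low genes. Folds in the text are plain RPKM ratios. Reads were recovered from RPKM (at least 99.9% of values whole within 0.01 read), and intervals on folds are exact conditional binomial ones at 95% that cover counting error only. KLA at 1, 6 and 12 h was set against 1 untreated library and KLA at 24 h against another. With 1 library per condition no p-value is given. The steps for overlaps, distances and 2-fold calls were tested on simulated data. Motifs were searched on both strands of RefSeq promoter windows (GRCm38.p6), matched by gene ID.

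The sites and the 9 gene lists were chosen with earlier results of these data known. Named are genes of the 15 sites highest in SREBP1 and the 10 highest in LXR tags, of the lists, the 5 highest and 5 lowest ratios at each time with at least 10 reads in a library, the 8 of highest mean RPKM and those at the distance limit. Others were chosen after their values were seen. Some genes that this rule or the lists would name are not reported here, and they were left out of the list counts.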

Additional observations from a re-analysis of the deposited data

How the results depend on the processing

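Asking for at least 0.5 of the SREBP1 peak to be shared left 682 sites, its centre inside the LXR peak 679, and an SREBP1 fold over input of at least 8 left 835. With the LXR list cut to its 13984 top-scoring peaks, the share of promoter SREBP1 peaks that overlapped LXR was 6.77% in place of 22.7%. Counts of genes at least 2-fold lower moved by over 1.5 times with the pseudocount: at 1 h from 38 to 76 at 0.1 RPKM and to 9 at 3 RPKM, and at 3 RPKM to 167 at 6 h and 108 at 12 h, where the median at 6 h was −0.39. With at least 5 RPKM in 2 libraries, 12 were lower at 1 h. With the libraries rescaled to a median of 0 over all genes, 24 were lower at 1 h, 146 higher and 125 lower at 6 h, and 113 higher and 103 lower at 12 h; the medians were −0.0018 at 1 h, −0.0342 at 6 h and −0.0196 at 12 h (this setting was added for the medians after seeing the data). The cause of these shifts was not tested. In the other 62 combinations of result and setting, counts stayed within 1.5 times and medians within 0.1 on the log2 scale. Among these the rescaled median at 24 h was −0.074, in place of −0.17. The overlap share was tried under no other setting than the cut LXR list. At 1 h lower calls no longer outnumbered higher ones at a pseudocount of 3 RPKM (29 higher, 9 lower) or with at least 5 RPKM in 2 libraries (28 higher, 12 lower). The same held over all genes under both settings. No paired analysis was possible because each condition has 1 library, and no library could be left out. At 2205188 to 2674827 reads per library, genes near 1 RPKM rest on a few reads, and small differences there were not detectable at this depth.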
